A study of Mus musculus with 9 samples.

Results

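The genes described here are 41 genes of DNA replication and repair, taken by name from a table of read counts for 47937 mouse genes and matched by their Ensembl identifiers. They were grouped by role into 10 genes of origin licensing, 4 of origin firing, 9 of the replication fork, 4 of nucleotide supply and chromatin assembly, 4 checkpoint kinases, 5 genes of homologous recombination and the Fanconi anaemia pathway, and 5 genes of end joining and break signalling. All 41 were found and all 41 passed the filter on low counts that left 15540 genes for testing. RNA-seq was performed on total RNA of mouse embryonic fibroblasts (MEFs), with 3 libraries of wild type cells (WT), 3 of cells lacking Suv39h1 and Suv39h2 (S1S2) and 3 of cells lacking G9a and Glp (G9Gl). These gene pairs encode lysine methyltransferases (KMT) of lysine 9 of histone H3, and G9a and Glp are listed under their other names, Ehmt2 and Ehmt1. According to the study's methods all cells go back to E1c, a MEF clone whose Eset1 gene can be deleted by tamoxifen, and the gene pairs were disrupted in it by CRISPR/Cas9. Each mutant was taken as a single clone, so that genotype and clone cannot be told apart, and it was assumed that these methods also describe the present libraries. After the disruption, an inducible Cre with a puromycin resistance gene was added again, and lines were then kept in puromycin. Whether this held for the WT cells as well is not stated, and its part in the changes was not tested. The methods describe the 3 libraries of each line as biological replicates. How the cultures were separated is not given in the sources used here, and the p-values measure the spread between these libraries within 1 clone.

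Before S phase, the origin recognition complex, Cdc6 and Cdt1 load the MCM helicase onto DNA, a step called licensing, and the GINS complex and Cdc45 later turn it into the active helicase of the fork. The kinases Atr and Chek1 respond to stalled forks, and Atm and Chek2 to broken DNA. Breaks are rejoined either by homologous recombination, which copies the sister chromatid with the help of Brca1 and Brca2, or by non-homologous end joining, in which the ring of Ku70 and Ku80, encoded by Xrcc6 and Xrcc5, grips the free end and recruits the kinase encoded by Prkdc. Many of these genes are transcribed mainly around S phase, so that their level in a culture also moves with how many cells are cycling.

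Libraries held between 21319778 and 32157623 counts, and the members between 384 counts (Xrcc5 in S1S2 replicate 3) and 14291 counts (Rrm1). Levels are given as CPM, the count of a gene relative to the library's total after TMM scaling. The targeted genes Ehmt2 and Ehmt1 were lower in G9Gl, at 51.9 to 57.4 and 48.6 to 51.8 CPM, than in WT, at 114 to 132 and 102 to 106 CPM, and Suv39h1 was lower in S1S2, at 38.3 to 44.2 against 103 to 112 CPM. The Suv39h2 transcript was higher in S1S2 (52.7 to 57.4 CPM) than in WT (33.2 to 34.4 CPM), so the transcript level does not check that label. The 8 fibroblast markers summed to 8311 to 9627 CPM in WT, 5665 to 5716 in S1S2 and 6329 to 7153 in G9Gl. The collagen genes Col1a1, Col1a2 and Col3a1 made up most of this sum, and some markers rose in one mutant and fell in the other. Vim was at 1348 to 1535 CPM in WT, 2283 to 2472 in S1S2 and 1158 to 1299 in G9Gl. Thy1 was at 4.38 to 5.41 CPM in WT, 1.82 to 2.35 in S1S2 and 36.8 to 41.2 in G9Gl. S100a4 was at 66.8 to 70.7 CPM in WT, 33.7 to 39.2 in S1S2 and 80.2 to 85.5 in G9Gl. Pdgfra fell in both mutants, from 13.4 to 16.3 CPM in WT to 3.35 to 3.81 in S1S2 and 3.73 to 4.56 in G9Gl. So did Pdgfrb, from 48.7 to 58.0 CPM in WT to 23.8 to 25.8 in S1S2 and 20.2 to 22.7 in G9Gl. The 8 markers of blood cells reached at most 4.96 CPM in any library. The 4 epithelial markers summed to 0.297 to 0.548 CPM in WT, 4.66 to 5.55 in S1S2, mostly from Krt8, and 0.294 to 0.395 in G9Gl, the 4 endothelial ones to 0.123 to 0.193, 1.55 to 1.70 and 0.790 to 2.35 CPM, and the 4 neural ones, mostly Tubb3, to 24.4 to 25.8, 37.9 to 42.1 and 17.6 to 25.4 CPM. Their part in the member changes was not tested. Of these markers, Adgre1, Itgam, Cd3e, Cdh1, Rbfox3 and Sox2 were not above the floor of 3 counts in any group.

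The largest change among the 41 genes was in Xrcc5, which fell 2.51-fold in S1S2 and rose 1.21-fold in G9Gl. No other member changed 2-fold in either mutant. In S1S2, 16 of 41 members (39.0%) passed the test, which means an adjusted p of at most 0.01 from the quasi-likelihood test of edgeR, with Benjamini-Hochberg adjustment over all 15540 genes. Of all genes tested, 37.9% passed it, so the number of changed members was close to that of any genes. By direction, 6 members (14.6%) were higher against 20.3% of all genes, and 10 (24.4%) were lower against 17.6%. Xrcc5 was the only member with a fold change of at least 2 as well, which 9.0% of all genes had. The median log2 fold change over the members was -0.10, and over all genes tested 0.00 when rounded. In G9Gl, 17 members (41.5%) passed against 35.0% of all genes, but 10 passed without WT replicate 1 (24.4% against 29.0% of all genes) and 11 without G9Gl replicate 3 (26.8% against 29.3%). With all libraries, 2 members (4.88%) were higher, against 19.0% of all genes, and 15 (36.6%) were lower, against 16.0%. With a fold change of at least 2 there were 0 members by edgeR and also by DESeq2, against 10.2% of all genes by edgeR. The median log2 fold change was -0.07, over all genes -0.01, and the members ran from -0.50 to 0.28. Compared directly, 18 members (43.9%) differed between G9Gl and S1S2 against 42.6% of all genes, 5 of them higher in G9Gl (12.2% against 21.6%) and 13 lower (31.7% against 21.1%), and Xrcc5 again was the only one with a fold change of at least 2 (13.1% of all genes).

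**Figure D1:**
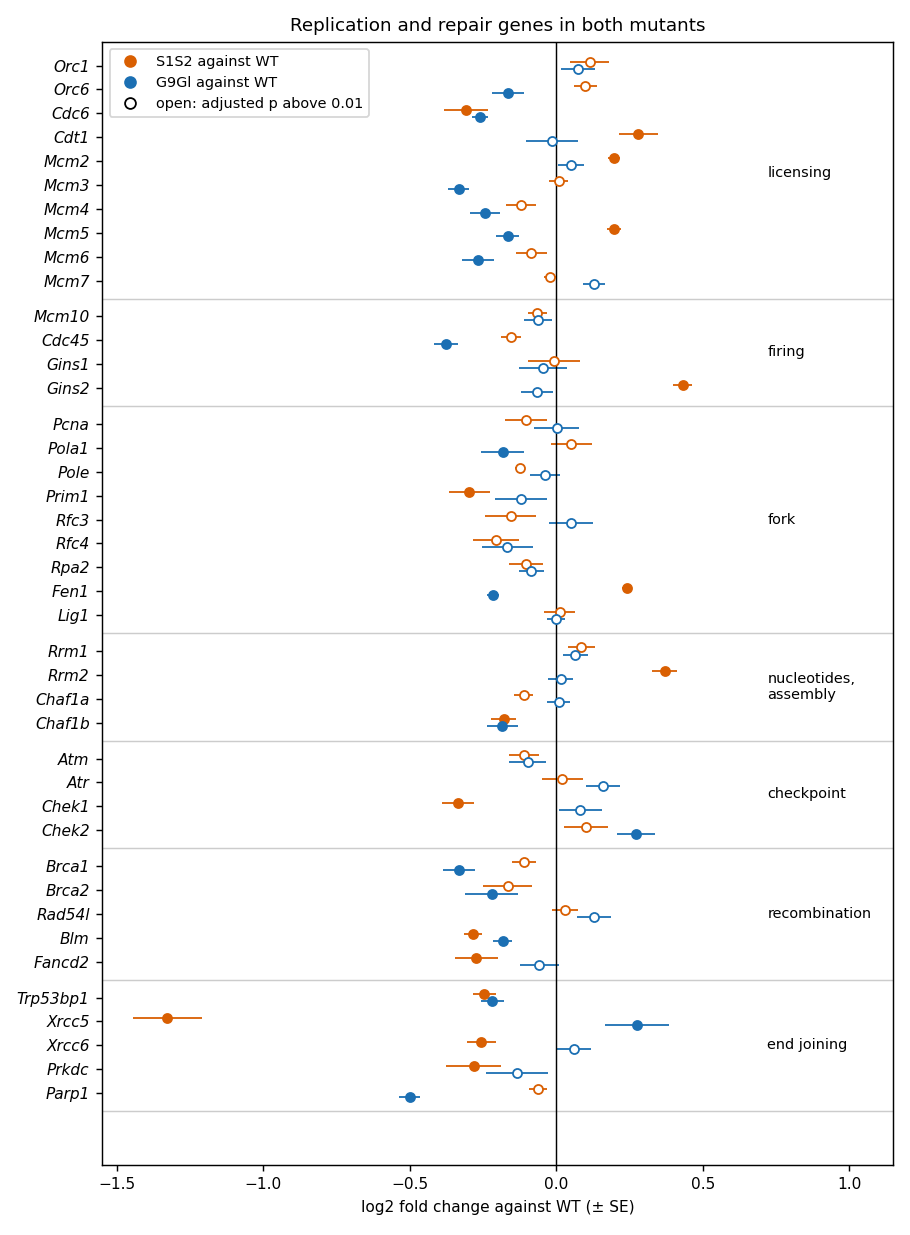
Log2 fold change against WT (± SE) of the 41 members, by role, in S1S2 (orange) and G9Gl (blue). Filled points passed the test at an adjusted p of at most 0.01. Xrcc5 in S1S2, at -1.33, stands far to the left of all other points, which lie between -0.50 and 0.43.

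Added over all 41 genes, the level was 5843 to 6108 CPM in WT, 5747 to 5899 in S1S2 and 5381 to 5627 in G9Gl. The G9Gl libraries were thus all below the WT libraries, and S1S2 overlapped with WT. A list of 18 genes of G2 and mitosis moved with these sums in G9Gl, at 3547 to 3804 CPM against 4215 to 4449 in WT, and lay at 4463 to 4669 CPM in S1S2. Mki67, whose product marks cycling cells, was at 947 to 1053 CPM in WT, 1079 to 1107 in S1S2 and 815 to 887 in G9Gl. In these bulk libraries fewer cells in S phase and less RNA per cell cannot be told apart, and the part of cell cycling in the member changes was not tested.

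Among the genes of end joining and break signalling, 4 of 5 fell in S1S2, where 17.6% of all genes tested did, and in G9Gl 2 fell and 1 rose, against 16.0% and 19.0% of all genes. Xrcc5, encoding Ku80 and located at chr1:72307421-72394952 on the plus strand of GRCm38, was at 44.1, 39.6 and 50.05 CPM in WT, at 19.0, 16.3 and 18.1 CPM in S1S2 and at 55.2, 50.5 and 56.2 CPM in G9Gl. The S1S2 libraries lay below the others by a wide margin, and the G9Gl libraries all lay above the WT libraries. The log2 fold change was -1.33 (SE 0.118, adjusted p = 7.66e-10 by edgeR) in S1S2 and 0.28 (SE 0.109, adjusted p = 0.00592) in G9Gl, and between the mutants it was 1.60 (SE 0.0812, adjusted p = 3.11e-11). The fall in S1S2 passed the test under all 15 alternatives to the processing. The rise in G9Gl did not pass without the TMM factor (adjusted p = 0.0183), nor without WT replicate 1 (0.0247), WT replicate 2 (0.0319), G9Gl replicate 1 (0.0192) or G9Gl replicate 3 (0.0323), where the log2 fold change was between 0.20 and 0.27.

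Xrcc6 encodes Ku70, the partner of Ku80 in the ring. It was at 125, 123 and 132 CPM in WT, 102, 111 and 104 CPM in S1S2 and 138, 123 and 134 CPM in G9Gl. Its S1S2 libraries lay below all others, with a log2 change of -0.26 (SE 0.0490, adjusted p = 0.000457 by edgeR), and G9Gl overlapped with WT at 0.06 (adjusted p = 0.351). Per length of exon, in counts per kilobase of exon and scaled library total (RPKM), Xrcc5 was at 17.4 ± 2.06 and Xrcc6 at 28.2 ± 1.07 in WT (SD, n = 3 libraries). The length was that of all annotated exons merged, 2555 bases for Xrcc5 and 4476 for Xrcc6, so comparisons across genes depend on the annotation. In S1S2 the levels were 6.96 ± 0.543 and 23.6 ± 1.08, and in G9Gl 21.1 ± 1.20 and 29.4 ± 1.72. The ratio of Xrcc5 to Xrcc6 on this scale was thus 0.565 to 0.665 in the WT libraries, 0.257 to 0.327 in S1S2 and 0.701 to 0.733 in G9Gl, with no overlap between the genotypes.

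Prkdc, encoding the catalytic subunit of the DNA-dependent protein kinase, was at 81.0, 72.3 and 89.8 CPM in WT and at 64.7, 67.3 and 67.8 CPM in S1S2, a log2 change of -0.28 (SE 0.0927, adjusted p = 0.00224 by edgeR) that was lost without S1S2 replicate 1 (adjusted p = 0.0138) and with the median change of each chromosome subtracted (-0.20, adjusted p = 0.0249). In G9Gl it was at 69.8 to 79.5 CPM and did not pass (-0.14, adjusted p = 0.110). Trp53bp1, whose product 53BP1 protects broken ends from resection, fell from 120 to 131 CPM in WT to 104 to 108 CPM in S1S2 (-0.25) and 106 to 110 CPM in G9Gl (-0.22). With the median of the 50 nearest tested genes subtracted, its fall in S1S2 did not pass (-0.12, adjusted p = 0.0303 by edgeR). Of its exonic sequence, 13.1% of all 75-base words also occur in other genes, mainly in the antisense Tubgcp4, so its counts are less certain. Parp1 is the enzyme that marks DNA nicks and breaks with poly(ADP-ribose). It was at 253, 256 and 239 CPM in WT and at 240, 238 and 237 CPM in S1S2, where it did not pass (-0.06, adjusted p = 0.204), and at 174, 174 and 181 CPM in G9Gl. The G9Gl libraries were well below the rest, with a log2 change of -0.50 (SE 0.0362, adjusted p = 1.40e-08 by edgeR), the largest fall of a member in this mutant, and the mutants differed by -0.44 (adjusted p = 6.54e-08). Parp1 and Xrcc5 both lie on chromosome 1, where the median tested gene was at -0.26 in G9Gl. With chromosome medians or those of the nearest genes subtracted, Parp1 was at -0.24, and Brca1 fell further (-0.37 and -0.41).

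**Figure D2:**
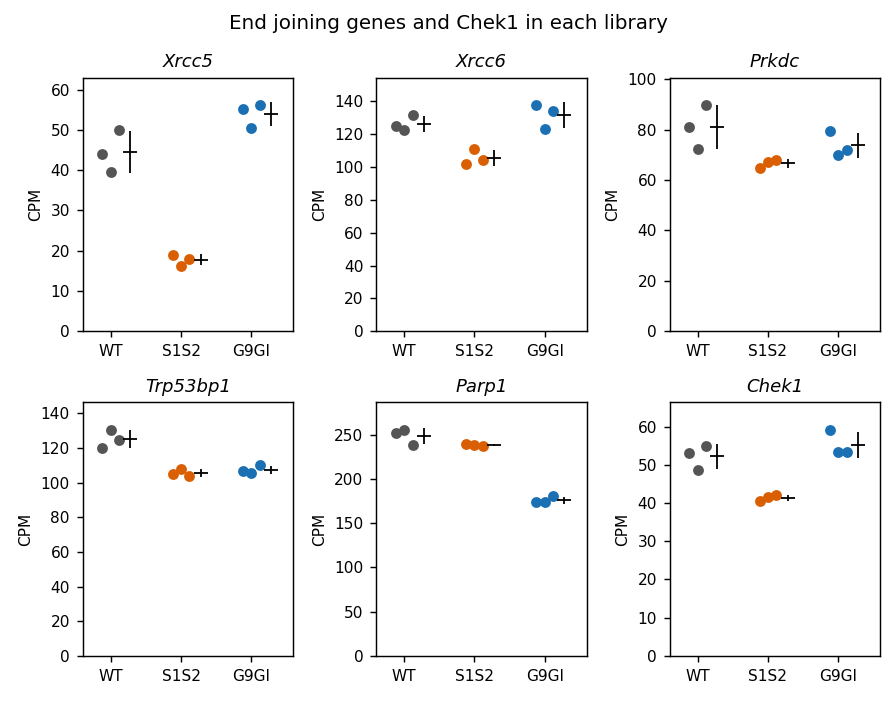
CPM of the 5 genes of end joining and break signalling and of Chek1 in each library (points), with mean and SD of the 3 libraries of a genotype (black). In S1S2 Xrcc5 lies between 16.3 and 19.0 CPM, below the WT range of 39.6 to 50.05, and in G9Gl Parp1 lies between 174 and 181 CPM, below the WT range of 239 to 256.

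To see how the neighbours of Xrcc5 moved, the 16 nearest tested genes over 5 CPM around it, 8 on each side, were also examined. This set was chosen after the Xrcc5 values had been seen. They lay between 5.31 Mb before and 2.08 Mb after the start of Xrcc5. Their log2 fold changes in S1S2 ran from -0.40 to 0.42 with a median of -0.01, so that none came near the -1.33 of Xrcc5. The nearest gene on the left, Pecr, was at -0.26 and the nearest on the right, Smarcal1, at -0.13. In G9Gl the same genes ran from -0.70 to 0.40 with a median of -0.22, and Xrcc5 at 0.28 was above all of them but Tns1. Xrcc5 had no exonic overlap with another annotated gene, and 0% of its 75-base words were found in other genes.

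**Figure D3:**
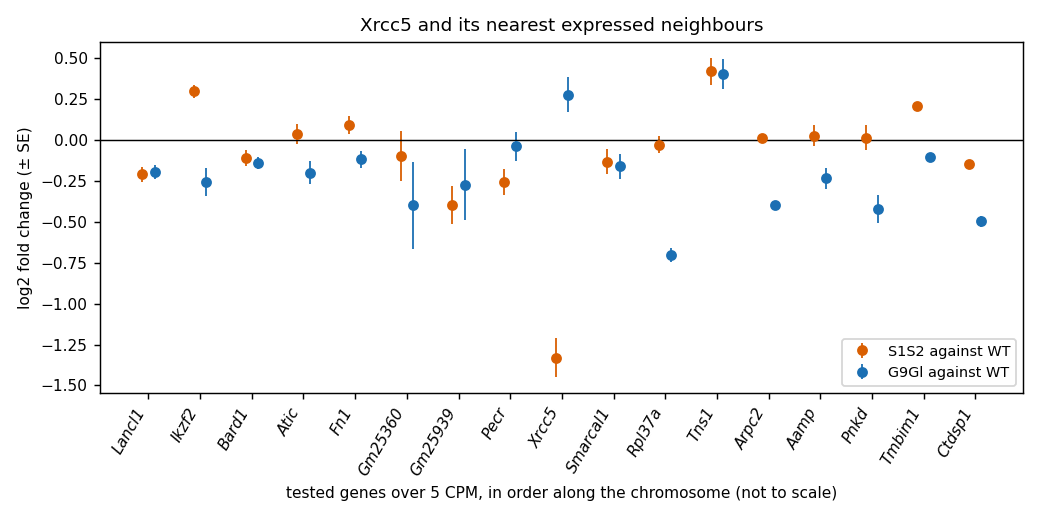
Log2 fold change against WT (± SE) of Xrcc5 and of the 8 nearest tested genes over 5 CPM on each side, in their order along the chromosome, in S1S2 (orange) and G9Gl (blue). In S1S2 the neighbours lie between -0.40 and 0.42 and Xrcc5 lies at -1.33.

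The promoter of Xrcc5 is shown because this gene moved most. The 250 bases before its annotated start (chr1:72307171-72307420, plus strand, GRCm38.p6, from RefSeq) hold none of the searched E2F octamers TTTCCCGC, TTTCGCGC, TTTGCCGC and TTTGGCGC on either strand and 1 CCAAT box on the opposite strand, printed in capitals.
Xrcc5: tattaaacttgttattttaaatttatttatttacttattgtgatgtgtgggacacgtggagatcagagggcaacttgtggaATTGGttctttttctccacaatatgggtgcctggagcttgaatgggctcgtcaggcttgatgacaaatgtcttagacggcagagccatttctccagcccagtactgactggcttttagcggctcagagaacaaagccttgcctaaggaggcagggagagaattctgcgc
E2F factors drive many genes of S phase, and their binding sites include such octamers. Of 41 members, 35 had an entry in the promoter table, and 10 of these 35 (28.6%) held at least 1 of the octamers, against 2.16% of 27025 genes and 1.86% of 32851 promoters in the whole table. These 10 were Brca2, Cdc6, Chek2, Mcm5, Mcm6, Mcm7, Orc1, Pola1, Rfc3 and Xrcc6. A CCAAT box was found in 23 of the 35 (65.7%) against 37.5% of all genes, and the elements TTTGAA and TTCGAA, forms of the CHR element of late cell cycle genes, in 6 (17.1%) against 19.55%. These matches describe the letters of the sequence and not binding. In S1S2, 1 of the 10 members with an octamer rose (Mcm5) and 2 fell (Cdc6 and Xrcc6), and of the other 25 with an entry 4 rose and 6 fell, with medians of -0.05 and -0.10 on the log2 scale. In G9Gl the figures were 1 higher and 5 lower of 10, and 1 higher and 9 lower of 25, with medians of -0.06 and -0.09. Of all genes tested, 20.3% rose and 17.6% fell in S1S2, and 19.0% rose and 16.0% fell in G9Gl.

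Of the licensing genes, 6 of 10 fell in G9Gl and none rose, against 16.0% and 19.0% of all genes tested, and in S1S2 3 rose and 1 fell, against 20.3% and 17.6%. With the median change of each chromosome subtracted, Mcm3 (-0.07), Mcm4 (-0.05) and Mcm6 (-0.01) no longer passed in G9Gl, nor did Cdt1 (0.12) and Mcm5 (0.04) in S1S2. The MCM helicase is a ring of 6 subunits, and summed over Mcm2 to Mcm7 the level was 1746 to 1809 CPM in WT, 1786 to 1826 in S1S2 and 1559 to 1639 in G9Gl. The subunits did not move together. Mcm3 was at 278, 280 and 267 CPM in WT, 278, 284 and 268 CPM in S1S2 and 211, 219 and 224 CPM in G9Gl. The G9Gl libraries were all below the others, with a log2 change of -0.33 (SE 0.0343, adjusted p = 3.07e-06 by edgeR), while S1S2 and WT overlapped (0.01, adjusted p = 0.899). Its fall in G9Gl was -0.07 (adjusted p = 0.179) with chromosome medians removed and -0.05 (adjusted p = 0.391) with the median of the 50 nearest tested genes removed, an alternative chosen after the data had been seen. Mcm6 was at 324, 328 and 356 CPM in WT and at 286, 265 and 284 CPM in G9Gl (-0.27), and Mcm4 at 312, 313 and 347 CPM in WT and at 276, 271 and 273 CPM in G9Gl (-0.24). Neither passed in S1S2, where Mcm6 was at 304 to 326 CPM and Mcm4 at 295 to 303 CPM. Mcm2 was at 234 to 244 CPM in WT, rose in S1S2 to 271 to 279 CPM (0.20) and overlapped with WT in G9Gl at 234 to 255 CPM. Its rise did not pass with the medians of the nearest genes removed (0.12, adjusted p = 0.0266 by edgeR). Mcm7 did not pass in either mutant, with 272 to 284 CPM in WT, 270 to 276 CPM in S1S2 and 290 to 312 CPM in G9Gl. Its exons overlap those annotated for Mir25 and Mir93 and, on the other strand, Ap4m1 and Cops6, and 13.2% of its 75-base words occur elsewhere, mainly in Gm5487.

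Mcm5 was the subunit that passed in opposite directions. Among the 41 members, 3 (Mcm5, Fen1 and Xrcc5) passed in all 3 comparisons, in opposite directions against WT and with no library overlapping with WT, as did 5.49% of all genes tested. Mcm5 was at 316, 319 and 312 CPM in WT, 368, 367 and 350 CPM in S1S2 and 269, 279 and 295 CPM in G9Gl, and the 3 genotypes did not overlap. The log2 fold change was 0.20 in S1S2 (SE 0.0256, adjusted p = 0.000808 by edgeR), -0.17 in G9Gl (SE 0.0389, adjusted p = 0.00330) and -0.36 between G9Gl and S1S2 (adjusted p = 1.05e-06). The fall in G9Gl was lost without WT replicate 1, G9Gl replicate 1 or G9Gl replicate 2 (adjusted p up to 0.0253). The rise in S1S2 was lost with chromosome medians removed (0.04, adjusted p = 0.434) and turned sign with those of the nearest genes (-0.03, adjusted p = 0.657), while the difference between the mutants still passed at -0.22 and -0.19.

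**Figure D4:**
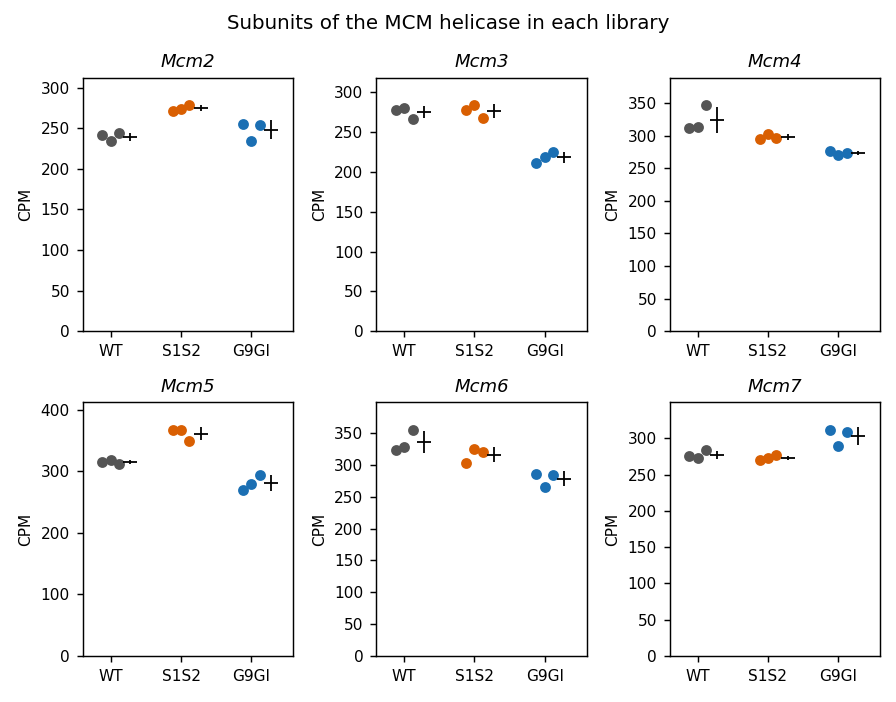
CPM of the 6 subunits of the MCM helicase in each library (points), with mean and SD of 3 libraries (black). In G9Gl, Mcm3 (211 to 224 CPM), Mcm4 (271 to 276), Mcm5 (269 to 295) and Mcm6 (265 to 286) lie below their WT ranges, while Mcm7 (290 to 312) lies above its own and did not pass the test.

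The promoters of Mcm5 and Mcm6 are given as those of 2 helicase subunits that fell in G9Gl and hold E2F octamers, together with 30 bases around the single octamer of Cdc6 and of Xrcc6, whose windows run into annotated exons. They are Mcm5 at chr8:75109259-75109508 (plus strand), Mcm6 at chr1:128359706-128359955 (minus strand), Cdc6 at chr11:98908002-98908031 (plus strand) and Xrcc6 at chr15:82016312-82016341 (plus strand), from RefSeq on GRCm38.p6. Capitals mark E2F octamers and CCAAT boxes on either strand.
Mcm5: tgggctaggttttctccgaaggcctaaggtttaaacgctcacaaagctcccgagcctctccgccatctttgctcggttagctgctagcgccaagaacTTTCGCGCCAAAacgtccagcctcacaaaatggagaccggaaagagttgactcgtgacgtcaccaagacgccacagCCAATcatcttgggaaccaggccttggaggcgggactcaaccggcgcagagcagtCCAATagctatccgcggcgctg
Mcm6: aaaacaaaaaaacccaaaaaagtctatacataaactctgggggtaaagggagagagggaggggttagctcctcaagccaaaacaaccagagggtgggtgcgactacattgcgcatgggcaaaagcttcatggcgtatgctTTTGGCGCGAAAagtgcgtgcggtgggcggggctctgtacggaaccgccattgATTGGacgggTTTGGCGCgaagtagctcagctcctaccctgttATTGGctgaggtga
Cdc6: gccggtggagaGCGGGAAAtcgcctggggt
Xrcc6: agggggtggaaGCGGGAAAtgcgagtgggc
In Mcm5 2 octamers on opposite strands overlap, beginning at base -153 and -149 relative to the start, and in Mcm6 another such pair begins at -110 and -106 and a single octamer at -47. For Mcm5 and Mcm6, a stretch of bases after the RefSeq start was found in no GENCODE transcript of the gene. GENCODE places their starts further downstream, at chr8:75109569 and chr1:128359664, so these distances depend on the annotation. Both promoters also hold 2 CCAAT boxes. Between the mutants these genes differed in the same direction, with Mcm6 at -0.18 (adjusted p = 0.00303 by edgeR), although only Mcm5 rose in S1S2. The difference in Mcm6 was lost in 5 of 15 alternatives, with the median change of each chromosome subtracted (-0.05, adjusted p = 0.403), with that of the nearest genes (-0.09, adjusted p = 0.125), and without G9Gl replicate 2, S1S2 replicate 2 or S1S2 replicate 3.

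Cdc6, which loads the helicase together with Cdt1, fell in both mutants. It was at 81.0, 80.1 and 80.9 CPM in WT, 69.5, 67.2 and 58.6 CPM in S1S2 and 65.5, 66.8 and 69.7 CPM in G9Gl. All mutant libraries were below all WT libraries, with log2 fold changes of -0.31 (SE 0.0752, adjusted p = 0.000206 by edgeR) and -0.26 (SE 0.0267, adjusted p = 0.000850). Both falls passed under all 15 alternatives. Cdt1 moved otherwise, from 74.1 to 81.6 CPM in WT to 91.3 to 102 CPM in S1S2 (0.28, adjusted p = 0.00166) and 73.0 to 85.9 CPM in G9Gl (-0.02, adjusted p = 0.858), and its rise was lost without WT replicate 1 or S1S2 replicate 3, with chromosome medians removed (0.12, adjusted p = 0.127) and with the medians of the nearest genes removed (0.01, adjusted p = 0.936). Of the origin recognition subunits, Orc1 passed in neither mutant (0.11 and 0.07) and Orc6 fell in G9Gl only just (-0.17, adjusted p = 0.00912), a call lost in 8 of 15 alternatives, with DESeq2 as the test (adjusted p = 0.0116), its size factors, at least 10 counts in every library or only the libraries compared, and without WT replicate 1 or 3 or G9Gl replicate 1 or 2.

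Of the 4 firing genes, Cdc45 fell in G9Gl and Gins2 rose in S1S2. Cdc45, which joins the MCM ring in the active helicase, was at 76.5, 74.9 and 79.3 CPM in WT, 70.6, 69.7 and 66.8 CPM in S1S2 and 60.3, 56.6 and 60.7 CPM in G9Gl. The order WT, S1S2, G9Gl held without overlap, with log2 fold changes of -0.16 (SE 0.0338, adjusted p = 0.0115 by edgeR, not passing) and -0.38 (SE 0.0398, adjusted p = 3.71e-06). The fall in G9Gl passed at -0.18 with chromosome medians removed and at -0.23 with those of the nearest genes, and the mutants differed by -0.22 (adjusted p = 0.000840), a difference that did not pass with chromosome medians removed (-0.11) or those of the nearest genes (0.01). Gins2, a subunit of GINS, was at 44.0, 42.1 and 42.0 CPM in WT, 58.9, 57.9 and 55.9 CPM in S1S2 and 43.3, 38.5 and 40.6 CPM in G9Gl. It rose in S1S2 by 0.43 on the log2 scale (SE 0.0314, adjusted p = 3.65e-06), and overlapped with WT in G9Gl (-0.07, adjusted p = 0.338), with a difference of -0.50 between the mutants (adjusted p = 5.00e-07). Its rise was 0.28 with chromosome medians removed, and 0.17 with the medians of the nearest genes removed, where it did not pass (adjusted p = 0.0129) and where the difference between the mutants did not pass either (-0.16, adjusted p = 0.0212). However, 64.7% of its 75-base words are shared with the antisense gene Gse1, so that its level is uncertain unless strand was used in counting. Mcm10 and Gins1, with log2 fold changes between -0.07 and -0.01, did not pass in either mutant.

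At the fork, 1 of 9 genes rose and 1 fell in S1S2, against 20.3% and 17.6% of all genes, and 2 fell in G9Gl, against 16.0%. Pcna, Pole, Rfc3, Rfc4, Rpa2 and Lig1 passed in neither mutant, with log2 fold changes between -0.21 (Rfc4 in S1S2) and 0.05 (Rfc3 in G9Gl). Pcna, the sliding clamp that holds polymerases on DNA, was the most abundant member per length at 125 ± 9.98 RPKM in WT, 117 ± 3.96 in S1S2 and 126 ± 5.90 in G9Gl, though 13.8% of its 75-base words occur in other genes, mainly in Pcna-ps2, so that its level is uncertain, and Atr the least abundant in WT at 4.97 ± 0.316 RPKM. This ranking rests on the merged exon lengths, 2400 bases for Pcna and 23629 for Atr. By CPM, Rrm1 was the highest (426) and Gins1 the lowest (25.7) in WT. Fen1, the nuclease that removes flaps from Okazaki fragments, was at 116, 114 and 112 CPM in WT, 134, 136 and 133 CPM in S1S2 and 100, 96.5 and 97.4 CPM in G9Gl. The groups did not overlap, with log2 fold changes of 0.24 (SE 0.0163, adjusted p = 7.38e-05 by edgeR) in S1S2, -0.22 (SE 0.0204, adjusted p = 0.000225) in G9Gl and -0.45 between the mutants. Neither change passed with chromosome medians removed (-0.10 in S1S2, which turns its sign, and -0.05 in G9Gl) or with those of the nearest genes (0.05 and -0.05). Fen1 lies on chromosome 19, where the median of all genes shifted too, and 73.7% of its 75-base words occur in other genes, mainly in the antisense Gm10143, so its level is uncertain unless strand was used in counting. Prim1, which makes the RNA primers, fell in S1S2 from 155 to 180 CPM to 130 to 137 CPM (-0.30, adjusted p = 0.000423), a call lost with chromosome medians removed (-0.14), and Pola1, its partner polymerase, fell in G9Gl from 205 to 240 CPM to 188 to 202 CPM (-0.18, adjusted p = 0.00766), a call lost in 7 of 15 alternatives, among them the fits without WT replicate 1 or 3 and without G9Gl replicate 2 or 3.

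Ribonucleotide reductase makes the building blocks of DNA from a large subunit, Rrm1, and a small one, Rrm2. Rrm2 was at 160, 163 and 157 CPM in WT, 206, 217 and 198 CPM in S1S2 and 153, 168 and 164 CPM in G9Gl. Only the S1S2 libraries stood apart from WT, with a log2 change of 0.37 (SE 0.0420, adjusted p = 3.92e-06 by edgeR) against 0.01 (adjusted p = 0.831) in G9Gl, and the mutants differed by -0.36 (adjusted p = 4.44e-06). Rrm1 did not pass in either mutant, at 421 to 434 CPM in WT and 424 to 467 CPM in both mutants. Of the subunits of CAF-1, which places histones on new DNA, Chaf1b was at 83.6, 80.7 and 82.1 CPM in WT, 68.7, 75.7 and 72.9 CPM in S1S2 and 75.7, 67.5 and 73.5 CPM in G9Gl, below WT in every mutant library. Both falls were -0.18 (adjusted p = 0.00833 and 0.00704 by edgeR), and both were lost without WT replicate 1 or 3, the first also without S1S2 replicate 1 or 3 and the second without G9Gl replicate 2 or 3. Neither passed with chromosome medians removed (-0.09 in S1S2 and 0.01 in G9Gl) or with those of the nearest genes (0.13 and 0.09). With the replicate number as a block, the fall in S1S2 did not pass either (adjusted p = 0.0113 by edgeR). Chaf1a did not pass in either (-0.11 and 0.01), and 48.2% of its 75-base words are shared, mainly with the antisense Ubxn6, so that its level is uncertain.

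Of the checkpoint kinases, Chek1 fell in S1S2 and Chek2 rose in G9Gl. Chek1 was at 53.0, 48.7 and 55.0 CPM in WT, 40.5, 41.6 and 42.1 CPM in S1S2 and 59.2, 53.3 and 53.3 CPM in G9Gl. It fell in S1S2, where all libraries were below all others, by 0.33 on the log2 scale (SE 0.0543, adjusted p = 0.000149 by edgeR), did not pass in G9Gl (0.08, adjusted p = 0.266), and was higher in G9Gl than in S1S2 (0.42, adjusted p = 1.20e-05). Chek2 was at 28.1, 24.9 and 27.1 CPM in WT, 29.6, 26.7 and 29.9 CPM in S1S2 and 33.7, 30.6 and 32.5 CPM in G9Gl. It rose in G9Gl (0.27, SE 0.0651, adjusted p = 0.00250), but not past the threshold in S1S2 (0.10, adjusted p = 0.231), and the mutants did not differ at the threshold (0.17, adjusted p = 0.0407). The rise was lost without WT replicate 2, G9Gl replicate 1 or G9Gl replicate 3 (adjusted p up to 0.0142). The upstream kinases Atm and Atr passed in neither mutant, at -0.11 and 0.02 on the log2 scale in S1S2 and at -0.10 and 0.16 in G9Gl.

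Of the 5 genes of homologous recombination and the Fanconi anaemia pathway, none rose in either mutant (20.3% of all genes did in S1S2 and 19.0% in G9Gl), 2 fell in S1S2 (17.6% of all genes) and 3 in G9Gl (16.0%). Brca1 was at 159, 159 and 171 CPM in WT, 152, 154 and 147 CPM in S1S2 and 129, 123 and 136 CPM in G9Gl. The G9Gl libraries were below all others (-0.33, SE 0.0544, adjusted p = 1.28e-05 by edgeR), and S1S2 did not pass (-0.11, adjusted p = 0.0588). Brca2, which acts with Brca1 in recombination, was at 78.3 to 94.8 CPM in WT, 74.4 to 77.7 CPM in S1S2 (-0.17, not passing) and 70.3 to 77.4 CPM in G9Gl (-0.22, adjusted p = 0.00643), the latter lost without WT replicate 1 or 3 and without G9Gl replicate 2 or 3. Blm, the helicase that dissolves recombination intermediates, was at 72.0, 72.9 and 73.3 CPM in WT, 57.9, 62.1 and 58.9 CPM in S1S2 and 64.2, 66.3 and 61.5 CPM in G9Gl. Both mutants lay below WT, with log2 fold changes of -0.28 (SE 0.0311, adjusted p = 8.91e-05) and -0.18 (SE 0.0325, adjusted p = 0.00372), of which the second was lost without WT replicate 1, G9Gl replicate 1 or G9Gl replicate 3. Fancd2 fell in S1S2 from 63.0 to 72.2 CPM to 52.2 to 56.2 CPM (-0.27, adjusted p = 0.000673) and not in G9Gl (-0.06, adjusted p = 0.419), and Rad54l, with 10.4% of its 75-base words shared, mainly with the antisense Lrrc41, passed in neither (0.03 and 0.13).

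The median change of all genes differed between chromosomes, by amounts like those of the members. Over all tested genes of a chromosome, the median log2 fold change in S1S2 was 0.34 on chromosome 19, 0.15 on chromosome 8, -0.13 on chromosome 1 and -0.15 on chromosome 10. In G9Gl it was -0.26 on chromosome 1, -0.20 on chromosome 16 and -0.17 on chromosome 19. Of the 4 on chromosome 8 (Orc6, Cdt1, Mcm5 and Gins2), 3 rose in S1S2 and none fell, where 34.8% of all tested genes of the chromosome rose and 8.89% fell. Of the 4 on chromosome 1 (Mcm3, Mcm6, Xrcc5 and Parp1), 3 fell in G9Gl and Xrcc5 rose, against 38.7% of its genes that fell and 12.1% that rose, and of the 5 on chromosome 16 (Mcm4, Cdc45, Rfc4, Chaf1b and Prkdc), 3 fell, against 36.1%. Over the 40 members other than Xrcc5, the correlation of the log2 fold change with the median of the gene's chromosome was r = 0.62 in S1S2 and also 0.62 in G9Gl, and with Xrcc5 it was 0.55 and 0.44. These are correlations across genes, which are no independent replicates, since members of a chromosome share its median and all share the same libraries.

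**Figure D5:**
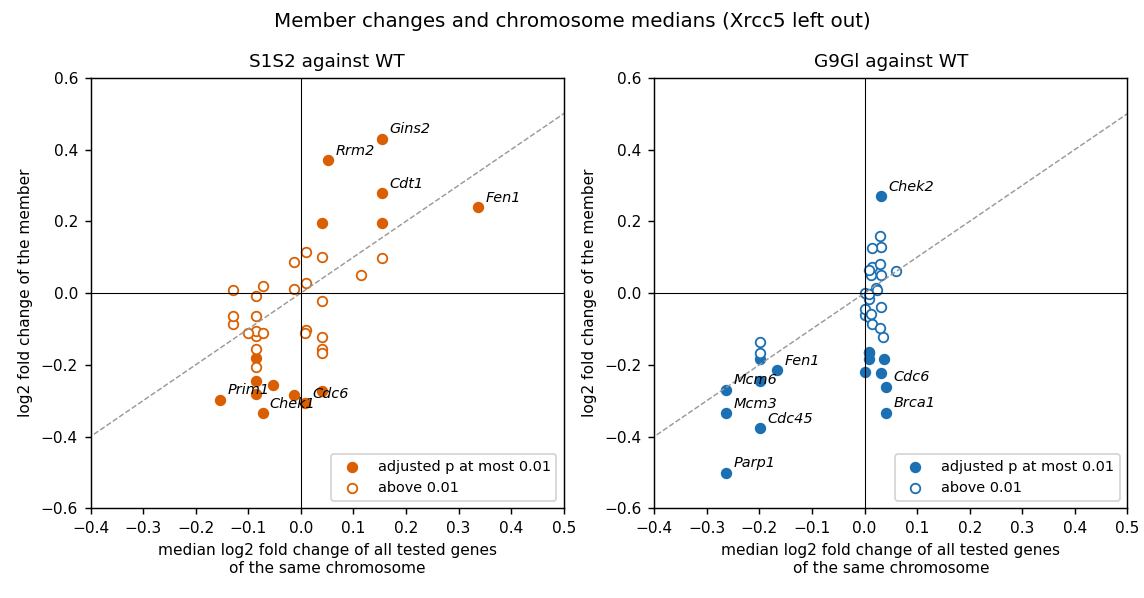
Log2 fold change of 40 members (all but Xrcc5) in S1S2 (left) and G9Gl (right) against the median log2 fold change of all tested genes on the same chromosome; filled points passed the test and the dashed line marks equal values. Members on chromosomes with a low median in G9Gl (Parp1, Mcm3, Mcm6, Cdc45 and Fen1) lie at the lower left, and Fen1 in S1S2 lies at the right, below the line.

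After the chromosome median was subtracted, 3 members were higher and 8 lower in S1S2, in place of 6 and 10, and 10 of the original 16 still passed. Together these were 26.8% of the members, against 35.0% of all genes in the same fit. Cdt1, Chaf1b, Fen1, Mcm5, Prim1 and Prkdc no longer did, and Fen1 turned to -0.10. In G9Gl, 2 were higher and 10 lower, in place of 2 and 15 (29.3% of the members against 32.5% of all genes), all of them among the original 17, and Chaf1b, Fen1, Mcm3, Mcm4 and Mcm6 dropped out. Subtracting the median of the 50 nearest tested genes over 5 CPM gave 1 higher (Rrm2) and 15 lower in S1S2, of which 8 were among the original 16, and 2 higher and 9 lower in G9Gl. These were 39.0% of the members against 34.5% of all genes in S1S2, and 26.8% against 32.5% in G9Gl. Lost in S1S2 were then Cdt1, Chaf1b, Fen1, Gins2, Mcm2, Mcm5, Prim1 and Trp53bp1, and in G9Gl Chaf1b, Fen1, Mcm3, Mcm4, Mcm6 and Pola1. Between G9Gl and S1S2 the split changed from 5 higher and 13 lower to 7 and 6 with the chromosome medians (31.7% of the members against 38.8% of all genes) and 8 and 6 with those of the neighbours (34.1% against 38.6%). The calls that remained under both in S1S2 included Xrcc5 at -1.20 and -1.22, Chek1 at -0.26 and -0.29, and Rrm2 at 0.32 and 0.29. In G9Gl, Parp1 was at -0.24 under both, Brca1 at -0.37 and -0.41, and Xrcc5 rose further, to 0.54 and 0.50. The part of these chromosome shifts in the member changes was not tested beyond these subtractions.

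Further genes of the same pathways, 149 in 8 lists, are given by their counts, beside which 20.3% of all genes tested rose and 17.6% fell in S1S2, and 19.0% rose and 16.0% fell in G9Gl. In S1S2 12 of them rose and 38 fell with a median of -0.07 on the log2 scale, and in G9Gl 10 rose and 32 fell with a median of -0.07. Of 18 further licensing and firing genes, 10 fell and 0 rose in S1S2 with a median of -0.21. Among them Donson, a factor of helicase activation, was lowest at -0.72, and in G9Gl, where 1 of 18 rose (Mcm9, 0.37) and 6 fell, Orc2 was lowest at -0.51. Of 29 fork genes, 3 rose, led by Pold4 (0.53), and 9 fell in S1S2, and 1 rose (Pole4, 0.26) and 9 fell in G9Gl, where Pold4 was lowest at -0.49. Dna2, a nuclease and helicase of flap and end processing, went from 60.4 to 64.3 CPM in WT to 29.2 to 33.1 CPM in S1S2 (-1.01, adjusted p = 1.24e-10 by edgeR). It was the only one of the 149 to pass with a 2-fold change there, which 9.0% of all genes tested did. Of 22 further homologous recombination genes, 0 rose and 1 fell (Exo1, -0.30) in S1S2, and 1 rose (Rad51d, 0.30) and 3 fell in G9Gl, led by Exo1 (-0.37). Of 13 further Fanconi anaemia genes, 3 fell, led by Fan1 (-0.41), and none rose in S1S2. In G9Gl 2 rose and 2 fell, with Ube2t lowest at -0.50, and Fancl, its ubiquitin ligase, rose from 7.97 to 10.1 CPM to 17.2 to 18.1 CPM (1.01, adjusted p = 2.91e-07 by edgeR).

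Of 14 further end joining genes, none fell as far as Xrcc5. For this and the next lists the shares of all genes are again 20.3% higher and 17.6% lower in S1S2, and 19.0% and 16.0% in G9Gl. In S1S2 1 rose (Polm, 0.56) and 4 fell, of which Rif1 was lowest at -0.30, and in G9Gl 2 rose, led by Xrcc4 (0.44), and 3 fell, led by Parp3 (-0.45). Xrcc4, the scaffold of the ligase that seals the ends, was not past the threshold in S1S2 (-0.06, adjusted p = 0.615). Of 17 checkpoint genes, 3 rose and 4 fell in S1S2, from H2afx at 0.37 to Rad1 at -0.38, and 0 rose and 3 fell in G9Gl, where Rnf168 was lowest at -0.41. Of 14 genes of nucleotide supply and chromatin assembly, 3 rose and 3 fell in S1S2, led by Asf1b (0.29) and Asf1a (-0.40), and 1 rose and 4 fell in G9Gl, led by Rrm2b (0.37) and Dtymk (-0.55).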

How the data were processed

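Total RNA of 9 MEF libraries, 3 per genotype, was sequenced after preparation with a stranded kit. The deposited values are raw counts of reads per Ensembl gene. Per the labels, the authors aligned to GRCm38 with STAR 2.5.2b, and per the study's methods they trimmed reads with cutadapt and used TEtranscripts for counting. The methods also name gene count matrices from snakePipes for a further part of the study, so the tool behind the present counts is not certain. The release of the annotation, the strand setting and the treatment of multiply aligned reads are not given in the sources used here, so that genes with close copies or antisense neighbours are uncertain. Groups were taken from the labelled genotypes.

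Of 47937 genes, 47224 matched GENCODE M21, which gave symbols, positions and exon lengths. After filterByExpr 15540 genes were tested with edgeR 4.0.16 under R 4.3.3, by its quasi-likelihood F test after TMM scaling with all 9 libraries in a single fit across all genes, in 3 contrasts. Adjusted p-values in the text come from this fit. The common biological coefficient of variation was 5.36%. SE values come from the spread of log2 CPM (prior count 2) between libraries. Replicates differed by more than counting noise, and none was treated as deposited a second time. The members, the role groups and the further lists were chosen with earlier results of these data known. By the rule for named genes, the value of each library was given for members that passed with a 2-fold change and, in each role group, for the member with the smallest adjusted p in each mutant (Blm, Brca1, Cdc45, Cdc6, Chaf1b, Chek1, Chek2, Fen1, Gins2, Mcm3, Parp1, Rrm2 and Xrcc5), and further members were given likewise after their values had been seen. From the further lists the largest rise and fall and any 2-fold change were named. Shared sequence was counted as the percent of 75-base words of a gene found in other genes on either strand. Promoters were taken from RefSeq for 35 members. Alternatives were DESeq2 1.42.0 as the test, the DESeq2 size factors, no filter, no composition factor, at least 10 counts in every library, an adjusted p of at most 0.05, only the libraries compared, the replicate number as a block, chromosome medians removed, leaving out each library and, added after seeing the data, the removal of neighbourhood medians. The scripts were tested on simulated data. SD and SE cover the spread between libraries only.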

Additional observations from a re-analysis of the deposited data

Results flagged for a closer look

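In 3 of 41 members every library of S1S2 lay on one side of WT and every library of G9Gl on the other, both changes passed the test, and the difference between the mutants passed it too, as in 5.49% of all genes tested. Both comparisons with WT share the WT libraries. Mcm5 was at 350 to 368 CPM in S1S2 and 269 to 295 CPM in G9Gl, a difference of -0.362 on the log2 scale, and at 312 to 319 CPM in WT. With chromosome medians removed it was at 0.04 in S1S2 (adjusted p = 0.434 by edgeR) and with those of the nearest genes at -0.03 (0.657), so that the rise was lost, and the difference between the mutants was -0.22 and -0.19. Fen1 was at 133 to 136 CPM in S1S2, 112 to 116 CPM in WT and 96.5 to 100 CPM in G9Gl, with -0.455 between the mutants, which became 0.05 once chromosome medians were removed and -0.10 with those of the nearest genes, neither passing. Xrcc5 was at 16.3 to 19.0 CPM in S1S2, 39.6 to 50.05 CPM in WT and 50.5 to 56.2 CPM in G9Gl, with a difference of 1.60, and 1.74 and 1.72 under these subtractions.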

How the results depend on the processing

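Precision is limited by 3 libraries per genotype and 1 clone per mutant, and all member changes against WT but that of Xrcc5 in S1S2 lay between -0.50 and 0.43 on the log2 scale. Of the called members, 7 of 16 in S1S2 (Blm, Cdc6, Chek1, Fancd2, Rrm2, Xrcc5 and Xrcc6), 5 of 17 in G9Gl (Brca1, Cdc45, Cdc6, Parp1 and Trp53bp1) and 8 of 18 between the mutants kept their call under all 15 alternatives fitted. In the fits without 1 library, 13, 9 and 14 kept it. With the chromosome medians removed, the member median in S1S2 was -0.05586, Fen1 was at -0.09821 and Parp1 at 0.06583 in S1S2, Chaf1b at 0.01363 and Rrm2 at -0.007425 in G9Gl, and Chaf1b at 0.1079 and Fen1 at 0.04849 between the mutants. With neighbourhood medians removed, 11 members passed in G9Gl, Chaf1b was at 0.1296 and Parp1 at 0.008452 in S1S2, Chaf1b at 0.09095, Chek1 at -0.001711, Gins2 at 0.01583 and Rrm2 at -0.0137 in G9Gl, and Cdc45 at 0.01188 and Cdc6 at -0.0319 between the mutants. Without composition factor, Mcm3 was at -0.01878 in S1S2 and Rrm2 at -0.01522 in G9Gl. Mcm3 was at -0.009248 without filter and -0.0005163 with at least 10 counts, and Chaf1b between the mutants at 0.008833 and 0.008647. Where medians were removed, the subtraction itself moves each value, and for the other settings the cause was not tested.

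Leaving out 1 library gave 14 to 19 members in S1S2, 15 to 18 between the mutants and 10 to 16 in G9Gl, in place of 17, with 10 without WT replicate 1 and 11 without G9Gl replicate 3. In these fits 30.7% to 36.0% of all genes passed in S1S2, 35.9% to 38.8% between the mutants and 29.0% to 33.9% in G9Gl. Mcm3 in S1S2 then ran from -0.01721 to 0.03082, Rrm2 in G9Gl from -0.01584 to 0.05175, and between the mutants Cdc6 from -0.02301 to 0.09341 and Chaf1b from -0.0425 to 0.04202. At an adjusted p of at most 0.05, 23, 20 and 24 members passed (48.9%, 45.9% and 53.3% of all genes). With the replicate number as a block, 16 members passed in S1S2, 18 in G9Gl and 19 between the mutants (37.9%, 35.1% and 43.0% of all genes), and Chaf1b in S1S2 lost its call (adjusted p = 0.0113). Deviations of same-numbered libraries correlated between -0.069 and 0.124, and not every pair was over 0.1, so the replicate numbers were not taken to pair the libraries.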

Other observations

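Among cell cycle genes outside replication and repair, Ccnd1 and Cdkn1c passed with a 2-fold change in S1S2, which 9.0% of all genes tested did. Ccnd1, the cyclin D1 gene of G1, was at 107 to 145 CPM in WT, 375 to 390 CPM in S1S2 (1.57 on the log2 scale, adjusted p = 9.01e-11 by edgeR) and 103 to 124 CPM in G9Gl. Cdkn1c, an inhibitor of cyclin-dependent kinases, went from 20.3 to 21.9 CPM in WT to 49.7 to 51.4 CPM in S1S2 (1.27). Over all genes tested, 20.3% rose and 17.6% fell in S1S2, 19.0% rose and 16.0% fell in G9Gl, and 21.1% were lower in G9Gl than in S1S2. Of 28 G1/S regulators, 7 rose and 9 fell in S1S2, where Cdkn1b was lowest at -0.38, and 6 rose and 7 fell in G9Gl, where E2f2 was lowest at -0.63. Cdkn1a, encoding the p21 inhibitor, was at 8.79 to 9.64 CPM in WT, 15.2 to 19.7 CPM in S1S2 (0.90) and 15.1 to 20.1 CPM in G9Gl (0.95).

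Of the 18 genes of G2 and mitosis, 5 rose and 3 fell in S1S2 (Bub1b was lowest at -0.29), 0 rose and 9 fell in G9Gl, and 13 were lower in G9Gl than in S1S2 with a median of -0.32. For these lists too, the shares of all genes were 20.3% and 17.6% in S1S2 and 19.0% and 16.0% in G9Gl. Between the mutants, 21.1% were lower in G9Gl. Foxm1, a transcription factor of these genes, rose from 78.8 to 86.5 CPM in WT to 146 to 154 CPM in S1S2 (0.88) and was at 81.6 to 83.5 CPM in G9Gl. Cenpf, a kinetochore gene on chromosome 1, fell in G9Gl from 291 to 313 CPM to 184 to 203 CPM (-0.63). Of 22 genes of mismatch and excision repair, 2 rose and 4 fell in S1S2, led by Ercc1 (0.26) and Ddb2 (-0.57), and 2 rose and 2 fell in G9Gl, led by Msh3 (0.24) and Neil3 (-0.78). Neil3, a glycosylase that removes oxidised bases, was at 30.3 to 33.2 CPM in WT, 23.8 to 24.9 CPM in S1S2 and 18.6 to 18.8 CPM in G9Gl.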
